A study of Mus musculus with 6 samples.

Results

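Cytosolic ribosomal protein genes encode the protein components of the ribosome outside mitochondria. They were taken from the deposited count table by name: rows whose gene name was Rpl or Rps followed by a digit, together with Rplp0, Rplp1, Rplp2 and Rpsa, without the Rps6k kinases and without names marked as pseudogenes. The rule took 93 of the 53801 genes of the table and left out 290 names, of which 10 were Rps6k genes and 280 carried the pseudogene mark -ps. No measured value entered the choice. Of the 93 genes, 87 had at least 10 counts over the 6 libraries and were tested among 23975 genes, and 81 had a mean of at least 1 CPM (counts scaled to library size, with TMM, the trimmed mean of M values). A set of 76 among the 81 carried the standard names of the ribosome's own proteins, 45 of the large and 31 of the small subunit, and the other 5 were paralog-like genes or Rps19bp1, a protein that binds Rps19.

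The libraries came from polyadenylated RNA of one frozen brain hemisphere from each of 3 Bahd1-WT (Bahd1+/+) and 3 Bahd1-KO (Bahd1-/-) mice of the C57BL/6 strain. The labels put all 6 adult mice at about 70 weeks of age. The paper describes them as males. BAHD1 is a heterochromatin factor, and the knockout removes it from every cell from conception on, with many deaths around birth, so that the Bahd1-KO mice were survivors. Each library held RNA of all cell types of a hemisphere, in which fewer cells of a type and less RNA per cell cannot be told apart.

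Each ribosome carries one copy of most of these proteins, and their genes are expressed in every cell type, with high levels in cells that grow or make much protein. Their mRNAs are short and begin with a run of pyrimidines at the cap, the 5'TOP motif, through which the cell switches their translation on and off together, with LARP1 and mTOR as the known regulators. In neurons, ribosomal protein mRNAs are also found in axons and dendrites.

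Stretches from near the annotated starts of 9 standard genes are shown because a pyrimidine run at the cap is what their mRNAs are known to share. The first 5 had the largest positive and the last 4 the largest negative log2 fold changes, among standard genes with at least 1 CPM that the RefSeq promoter table (GRCm38.p6) listed. Each line gives 30 bases of the gene's strand, 5' to 3', placed around the longest unbroken run of C and T between 20 bases before and 50 bases after the annotated start, with that run in capitals.
Rpl35: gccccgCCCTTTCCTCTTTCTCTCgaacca
Rps15: cagcccgtaCTTCCTTTTCCgagtaaccgc
Rpl18: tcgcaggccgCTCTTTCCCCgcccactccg
Rps26: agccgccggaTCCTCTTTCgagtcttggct
Rplp2: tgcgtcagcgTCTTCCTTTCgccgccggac
Rpl39: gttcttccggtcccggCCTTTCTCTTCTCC
Rpl15: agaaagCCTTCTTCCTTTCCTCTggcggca
Rpl23: gagtgggcggggCCTCCCgttcatatccca
Rps24: ttggtcggcagtgagcggTCCTCTTTTCCT

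These stretches lie at chr2:39005115-39005144 for Rpl35 (minus strand), chr10:80292447-80292476 for Rps15 (plus), chr7:45718062-45718091 for Rpl18 (plus), chr10:128626484-128626513 for Rps26 (minus) and chr7:141447636-141447665 for Rplp2 (plus). Those of the genes with negative values lie at chrX:37085173-37085202 for Rpl39 (minus), chr14:18270967-18270996 for Rpl15 (minus), chr11:97782404-97782433 for Rpl23 (minus) and chr14:24490698-24490727 for Rps24 (plus). The longest run had 18 bases in Rpl35 and 17 in Rpl15, and 6 in Rpl23. Counted from the annotated start, the run began at position -7 in Rpl35, -5 in Rplp2, -4 in Rpl15, 1 in Rpl18 and 3 in Rps26. It began further in, at position 18 in Rpl23, 25 in Rps15, 36 in Rpl39 and 38 in Rps24, so that the stretches of these 4 genes do not hold the annotated start. The runs of Rpl39 and Rps24 reach the last base of the table's sequence and may be longer. Within 70 bases from 20 before the annotated start, a run of at least 8 letters C or T on the gene's strand was present in 45 of the 56 standard genes in the table (80.36%), compared with 28.51% of 27025 genes. A window of 10 bases on either side of the start held such a run in 26.8% of the standard genes and 7.39% of all genes. The median log2 fold change, Bahd1-KO over Bahd1-WT, was 0.73 for the 45 genes with a run and 0.41 for the 11 without.

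The libraries held 42297150 to 93557948 counts, and Bahd1 itself had 1383, 844 and 1099 counts in Bahd1-WT and 0, 14 and 1 in Bahd1-KO. A library of each group stood apart in the ribosomal protein genes: Bahd1-KO replicate 2 had the highest CPM of the 6 libraries for 58 of the 87 genes, and Bahd1-WT replicate 2 the lowest for 54. Bahd1-KO replicate 3 was lowest for 22 and highest for 0. Marker lists of other cell types differed too. The summed level of 3 red blood cell markers was 9.26 to 13.0 CPM in Bahd1-WT and 13.0 to 77.2 CPM in Bahd1-KO, with the highest value in Bahd1-KO replicate 2 and 2 of 3 markers at an adjusted p under 0.1. The 4 choroid plexus markers summed to 267 to 363 and 465 to 1093 CPM, with 1 of 4 under 0.1 and the highest value again in Bahd1-KO replicate 2, and the 4 lung epithelium markers to 2.12 to 98.9 and 0.449 to 1.42 CPM, with 4 of 4 under 0.1. None of the red blood cell and choroid plexus markers was at 0 in any library, while 2 of the lung markers were at 0 in Bahd1-KO replicate 1 and 1 in replicate 3. The summed levels of the 5 oligodendrocyte markers were 4804 to 5426 and 5251 to 8039 CPM, of the 5 astrocyte markers 4258 to 4672 and 2777 to 4345 CPM, and of the 6 neuronal markers 6805 to 7482 and 5980 to 7646 CPM, with 2 of 5, 1 of 5 and 0 of 6 under 0.1, where 19.5% of all genes tested were. Of the remaining lists, 1 of 5 microglia, 2 of 4 endothelial, 0 of 4 pituitary and 0 of 2 olfactory epithelium markers were under 0.1. Single markers did not all follow the sum of their list. The log2 fold change was positive for 2 of 3 red blood cell, 2 of 4 choroid plexus and 0 of 4 lung markers. It was positive for 2 of 5 oligodendrocyte, 2 of 5 astrocyte and 2 of 6 neuronal markers, against 46.6% of all genes tested. The median was -0.08 over the oligodendrocyte and 0.28 over the choroid plexus markers. The part of these cells in the values below was not tested.

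The first question was whether ribosomal protein genes as a group had other levels in Bahd1-KO than in Bahd1-WT brains. In the order of the replicate numbers, their share of the counts was 0.478, 0.422 and 0.505% for Bahd1-WT, and 0.643, 0.892 and 0.555% for Bahd1-KO. Summed over the 87 genes, their levels were 4850, 4430 and 5136 CPM in Bahd1-WT and 6247, 8762 and 5362 CPM in Bahd1-KO, so that all Bahd1-KO libraries lay above all Bahd1-WT libraries, replicate 3 narrowly. The log2 ratio of the group means was 0.50, and 0.27 without Bahd1-KO replicate 2.

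Tested with edgeR (quasi-likelihood), 0 of the 87 genes reached the thresholds of a differentially expressed gene, a 2-fold change or more with an adjusted p under 0.05, which 0.00834% of all genes tested reached. At an unadjusted p under 0.05, 47 genes were higher in Bahd1-KO, against 19.9% of all genes, and 48 differed in either direction, against 31.8%, and DESeq2 without its prior put 31 genes past the thresholds as higher and 0 as lower, against 10.5% and 1.06% of all genes. With edgeR's adjusted p under 0.1, 38 of 87 genes (43.7%) were higher and 0 were lower, where the share of all genes was 14.7% for higher and 4.77% for lower. Without Bahd1-KO replicate 2 the count under 0.1 was 31 (10.7% of all genes) and 17 genes passed the full thresholds (1.98% of all genes). Without Bahd1-KO replicate 1 these counts were 52 and 33, where 40.6% and 16.7% of all genes were called. The count under 0.1 was 0 when Bahd1-KO replicate 3 or any of Bahd1-WT replicates 1, 2 and 3 was left out, as was the count past the full thresholds. In those 4 fits at most 0.0209% of all genes were under 0.1, so these counts of 0 were shared by nearly all genes.

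By sign alone, 68 of the 87 genes had a positive log2 fold change and 19 a negative one, and 46.6% of all genes tested were positive. The median was 0.64, with a range from -1.10 (Rpl24) to 5.05 (Rpl36), and the median of all genes tested was -0.06. Without Bahd1-WT replicate 2 the median of the 87 genes was 0.49, and without Bahd1-KO replicate 2 it was 0.41. The Bahd1-KO values all lay above the Bahd1-WT values for 47 of the 87 genes (54.0%), against 20.6% of all genes, and all below them for 1, Rpl24, against 19.3%. Taken one library at a time, the median difference from the Bahd1-WT mean over the 81 genes with at least 1 CPM was 0.49 on the log2 scale in Bahd1-KO replicate 1, 1.02 in replicate 2 and 0.34 in replicate 3.

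**Figure D1:**
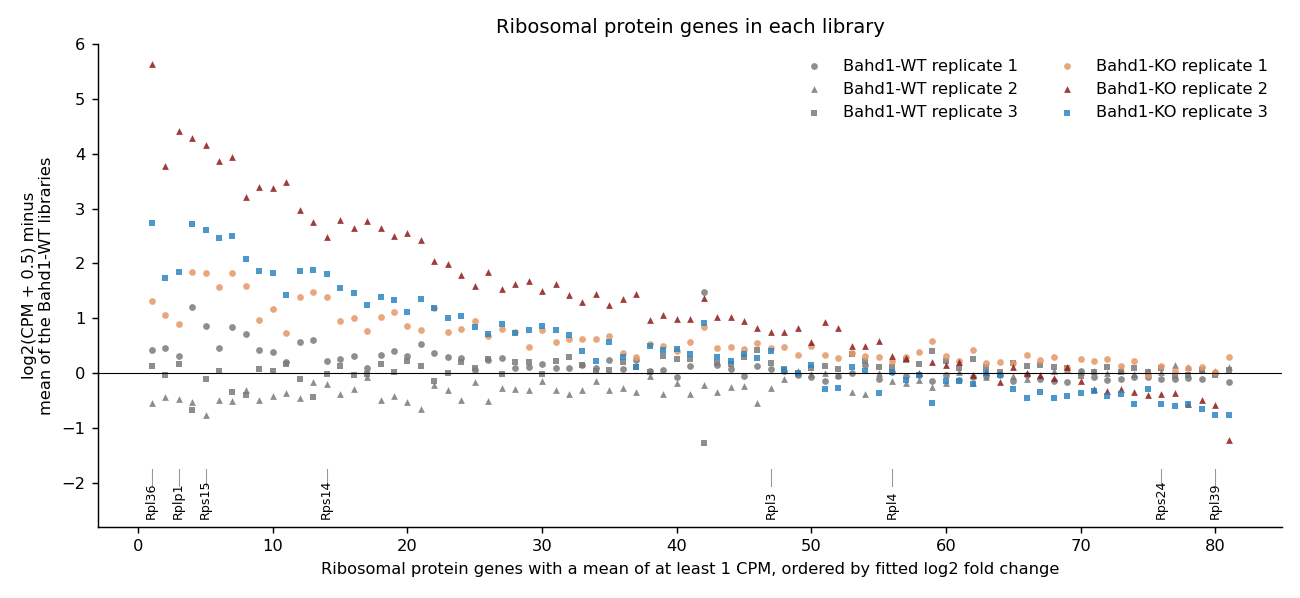
Each column is one of the 81 ribosomal protein genes with a mean of at least 1 CPM, ordered by fitted log2 fold change, and each point one library, as log2(CPM + 0.5) minus the mean of the 3 Bahd1-WT libraries (grey). The Bahd1-KO libraries spread apart on the left, with replicate 2 (dark red) highest, and on the right Bahd1-KO replicates 2 and 3 lie below the line while replicate 1 stays near or above it.

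Both subunits contributed to these counts. Of the 45 standard large-subunit genes 39 had a positive log2 fold change, with a median of 0.64, and 21 were higher with an adjusted p under 0.1. Of the 31 standard small-subunit genes 23 were positive, with a median of 0.68, and 14 were higher with an adjusted p under 0.1. These were 46.7% and 45.2% of the genes, against 14.7% of all genes tested, and 86.7% and 74.2% were positive, against 46.6%. The ranges within the subunits, from -0.41 to 5.05 for the large and from -0.24 to 3.08 for the small one, were far wider than the gap between their medians. Without Bahd1-KO replicate 2 the medians were 0.42 for the large and 0.37 for the small subunit, and with the offset 0.33 and 0.22, so that their order turned.

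Rpl36, a large-subunit protein (chr17:56613416-56614243, GRCm38), had the largest fold change. It had 0.918, 0.227 and 0.654 CPM in Bahd1-WT and 2.14, 51.9 and 6.53 CPM in Bahd1-KO, from 14 to 84 and 93 to 4946 counts. The groups did not overlap, but Bahd1-KO replicate 2 alone was far above the rest. The log2 fold change was 5.05 (SE 1.15, edgeR adjusted p 0.0634), and 2.84 without that library. It was 2.77 in a fit with an offset for the GC content and length of transcripts (edgeR adjusted p 0.0856).

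Rps15, a protein of the head of the small subunit (chr10:80292453-80294114), had 30.3, 9.49 and 15.3 CPM in Bahd1-WT and 59.8, 303 and 103 CPM in Bahd1-KO. All Bahd1-KO libraries were above all Bahd1-WT libraries. Its log2 fold change was 3.08 (SE 0.64, edgeR adjusted p 0.0634), 2.16 without Bahd1-KO replicate 2 and 1.60 with the offset. Rps29, a small zinc-binding protein of the small subunit (chr12:69157722-69159186), had 11.5, 5.67 and 8.43 CPM in Bahd1-WT and 25.2, 126 and 47.6 CPM in Bahd1-KO, again without overlap. The log2 fold change was 2.96 (SE 0.56), 2.10 without Bahd1-KO replicate 2 and 2.21 with the offset.

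Rpl35, a protein near the exit of the tunnel through which the new chain leaves the large subunit (chr2:39001580-39005624), had 9.47, 2.51 and 2.21 CPM in Bahd1-WT and 15.1, 84.4 and 28.1 CPM in Bahd1-KO. Bahd1-WT replicate 1 was several times above the other Bahd1-WT libraries but below every Bahd1-KO library. Its log2 fold change was 3.16 (SE 0.76), 2.20 without Bahd1-KO replicate 2 and 1.97 with the offset. The row Rps4l (chr6:148354656-148355598), which the annotation lists as a transcribed processed pseudogene, had 1.07, 0.340 and 0.614 CPM in Bahd1-WT and 1.86, 15.0 and 3.30 CPM in Bahd1-KO. Its groups did not overlap, and its log2 fold change of 3.31 (SE 0.79) was 1.92 without Bahd1-KO replicate 2 and 1.68 with the offset.

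The lowest p-value among the ribosomal protein genes belonged to Rps14, a small-subunit protein whose loss of one copy underlies the anaemia of the 5q deletion syndrome in people. It was picked after its values were seen. Rps14 had 24.2, 17.8 and 20.3 CPM in Bahd1-WT and 54.7, 118 and 73.9 CPM in Bahd1-KO. Every Bahd1-KO library lay above the Bahd1-WT range. The log2 fold change was 1.98 (SE 0.28, edgeR adjusted p 0.0634), and 1.63 without Bahd1-KO replicate 2, with an edgeR adjusted p of 0.0387. The adjustment gave the same 0.0634 to genes whose unadjusted edgeR p differed, such as 7.8e-05 for Rps14 and 0.0035 for Rpl27.

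The P stalk of the large subunit is the arm that binds elongation factors: the protein of Rplp0 anchors pairs formed by those of Rplp1 and Rplp2. Rplp0 (chr5:115559467-115563727) had 23.5, 15.0 and 21.5 CPM in Bahd1-WT and 38.7, 139 and 58.6 CPM in Bahd1-KO. Rplp1 (chr9:61913284-61914542) had 15.8, 8.99 and 14.3 CPM in Bahd1-WT and 23.9, 280 and 47.0 CPM in Bahd1-KO. Rplp2 (chr7:141447370-141451585) had 9.26, 6.04 and 8.93 CPM in Bahd1-WT and 13.5, 94.4 and 22.1 CPM in Bahd1-KO.
For each stalk gene Bahd1-WT replicate 2 was lowest, Bahd1-KO replicate 2 highest and the groups were separate. The log2 fold changes were 1.98 (SE 0.44) for Rplp0, 3.17 (SE 0.82) for Rplp1 and 2.43 (SE 0.65) for Rplp2, with edgeR adjusted p of 0.0634, 0.0638 and 0.0647. Without Bahd1-KO replicate 2 they were 1.28, 1.45 and 1.14. With the GC and length offset they were 1.55, 1.51 and 1.45, with edgeR adjusted p of 0.0853, 0.122 and 0.113, so that Rplp1 and Rplp2 were no longer under 0.1.

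**Figure D2:**
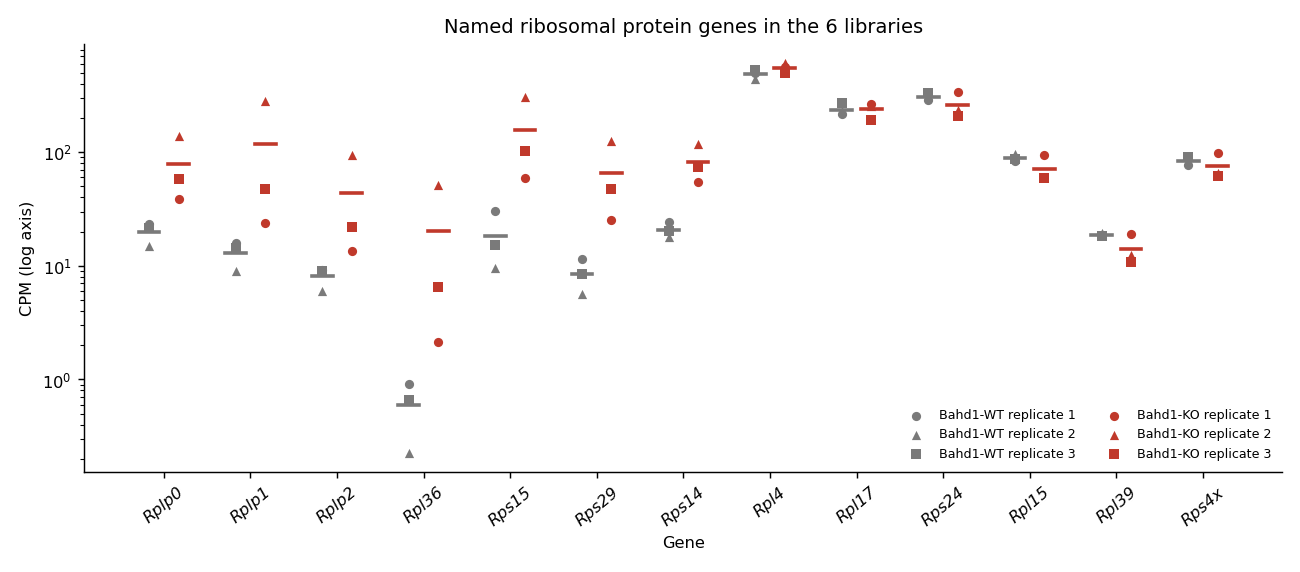
CPM on a log axis for 13 ribosomal protein genes in the 3 Bahd1-WT (grey) and 3 Bahd1-KO (red) libraries, one marker shape per replicate number, with a bar at the mean of each group. The 3 stalk genes, Rpl36, Rps15, Rps29 and Rps14 show no overlap between groups, while Rpl4, Rpl17, Rps24, Rpl15, Rpl39 and Rps4x overlap.

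None of the genes with negative log2 fold changes passed a threshold on the adjusted p-value. Rpl39, one of the smallest ribosomal proteins, which lines the exit tunnel (chrX:37082520-37085402), had 18.8, 19.3 and 18.4 CPM in Bahd1-WT and 19.2, 12.5 and 10.9 CPM in Bahd1-KO. Bahd1-KO replicate 1 lay within the Bahd1-WT range and the other Bahd1-KO libraries below it. The log2 fold change was -0.41 (SE 0.24, edgeR adjusted p 0.25).
Rpl15, a large-subunit protein (chr14:18267823-18271391), had 83.1, 95.7 and 86.9 CPM in Bahd1-WT and 94.0, 60.1 and 59.5 CPM in Bahd1-KO, with the same division of the Bahd1-KO libraries and a log2 fold change of -0.32 (SE 0.21). Rpl23, whose protein can also bind the p53 regulator Mdm2, had 192, 231 and 201 CPM in Bahd1-WT and 214, 161 and 136 CPM in Bahd1-KO, with a log2 fold change of -0.29 (SE 0.19). Rps24, a gene mutated in some patients with Diamond-Blackfan anaemia, had 286, 312 and 330 CPM in Bahd1-WT and 340, 238 and 210 CPM in Bahd1-KO, with a log2 fold change of -0.24 (SE 0.20).
In these genes Bahd1-KO replicate 1 was always above the Bahd1-WT mean and replicates 2 and 3 below it. With a sample left out, Rpl39 ran from -0.66 to -0.25 and Rpl15 from -0.54 to -0.20. Rpl23 ran from -0.46 to -0.15 and Rps24 from -0.44 to -0.10. With the GC and length offset the log2 fold changes were -0.52 for Rpl39, -0.88 for Rpl15, -0.15 for Rpl23 and -0.02 for Rps24, and the lowest edgeR adjusted p among them was 0.111.

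Rpl24 was the single gene with all Bahd1-KO values below all Bahd1-WT values, counting 19, 13 and 12 reads in the Bahd1-WT and 4, 6 and 7 in the Bahd1-KO libraries. At 0.143 CPM on average it was far under the other standard large-subunit genes, and 47.0% of its exon bases overlap another gene on the same strand, so its counts are uncertain. Its log2 fold change was -1.10 (SE 0.44, edgeR adjusted p 0.128). Rpl21 was the least steady gene among the Bahd1-WT libraries, with 54.3, 16.4 and 7.64 CPM there and 34.8, 50.3 and 36.7 CPM in Bahd1-KO; its log2 fold change was 0.64 (SE 0.59). Both were picked after their values were seen. Of the tested genes, 61 have pseudogenes named after them in the table, up to 23 each, and reads they share could have been split or lost in counting. All rows with the mark -ps together held 210 to 599 counts per library. These counts cannot show how many shared reads were lost.

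Levels were then compared between genes per kilobase of the principal transcript. In Bahd1-WT the highest were Rpl4, a protein reaching into the exit tunnel, with 317 ± 27.6 CPM per kilobase (SD, n = 3), and Rpl17 with 307 ± 35.9, which differed by less than their spread. Rps15a with 251 ± 10.3 and Rps27 with 250 ± 14.5 came next and were as close, and Rpl9, the fifth by the mean of all libraries, had 190 ± 19.8. In Bahd1-KO the levels of Rpl4, Rpl17, Rps15a, Rps27 and Rpl9 were 361 ± 36.3, 309 ± 52.4, 214 ± 28.3, 219 ± 63.3 and 209 ± 35.1 CPM per kilobase. Their log2 fold changes were 0.19, 0.01, -0.23, -0.19 and 0.13, none past a threshold, and Rps27 had -0.57 with the offset.
Rps15 moved from rank 43 of the 81 genes in Bahd1-WT to rank 2 in Bahd1-KO, with means of 36.7 ± 21.5 and 311 ± 260 CPM per kilobase. Its Bahd1-KO libraries had 120, 607 and 206 CPM per kilobase, and without Bahd1-KO replicate 2 the mean was 163 and the rank 9.

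At the lower end of the mean of all libraries, the level was 0.716 ± 0.392 CPM per kilobase in Bahd1-WT for Rps4l, 6.54 ± 1.22 for Rps19bp1, 7.67 ± 1.77 for Rpl27, 9.69 ± 0.258 for Rps20 and 13.6 ± 0.999 for Rpl7l1. In Bahd1-KO these genes had 7.14 ± 7.66, 11.9 ± 4.20, 20.6 ± 10.4, 13.1 ± 3.78 and 14.4 ± 0.989 CPM per kilobase. In Bahd1-WT alone Rpl36, with 1.57 ± 0.911 CPM per kilobase, and Rpl35 were also low, at ranks 80 and 79 of 81. The level of Rps20 rests on an annotated transcript of 3706 bases, the longest among the tested genes, and whether that form is the one expressed was not tested. The log2 fold changes were 1.43 (SE 0.36, edgeR adjusted p 0.0634) for Rpl27 and 0.43 (SE 0.22) for Rps20. Without Bahd1-KO replicate 2 they were 0.93 and 0.18, and with the offset 0.95 and 1.07.

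**Figure D3:**
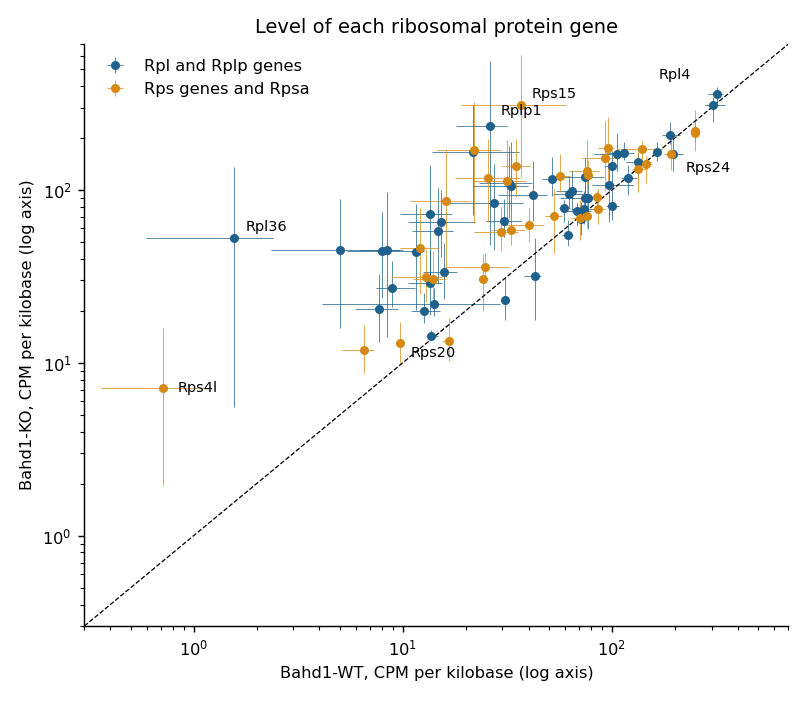
Mean level of each of the 81 genes in Bahd1-KO (y axis) against Bahd1-WT (x axis), in CPM per kilobase on log axes, with bars from the lowest to the highest of the 3 libraries of a group and the dashed line at equal levels. Genes at the upper right, such as Rpl4, lie near the line, and genes of lower level in Bahd1-WT lie mostly above it.

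The spread of levels between the 76 standard genes, which enter the ribosome in equal numbers with few exceptions, also differed between libraries. The SD of log2 CPM per kilobase was 1.39, 1.74 and 1.67 in the Bahd1-WT libraries and 1.28, 1.03 and 1.05 in the Bahd1-KO libraries. The median level was 55.0, 48.6 and 55.4 CPM per kilobase in Bahd1-WT and 83.3, 118 and 66.9 in Bahd1-KO. Thus the Bahd1-KO libraries had both the higher medians and the narrower spreads, with no overlap in either.

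The levels ran with the GC content of the transcripts in a way that differed between libraries. Over the 76 genes, Spearman's rho between level per kilobase and GC content was -0.47, -0.55 and -0.50 in Bahd1-WT and -0.40, 0.19 and -0.15 in Bahd1-KO, given as a description, since genes of one library share its preparation. Over all 14693 genes with at least 1 CPM and an annotation, rho was -0.20, -0.28 and -0.23 in Bahd1-WT and -0.13, 0.19 and -0.01 in Bahd1-KO. In both sets Bahd1-WT replicate 2 had the lowest and Bahd1-KO replicate 2 the highest value.

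The fold changes followed the same property. Over the 76 standard genes, log2 fold change and GC content had a rho of 0.71, and over 14612 other genes with at least 1 CPM a rho of 0.87. Divided into 4 equal groups of 19 by rising GC content, the ribosomal protein genes had median log2 fold changes of 0.01, 0.27, 0.86 and 1.93, where other genes in the same GC ranges had -0.33, -0.01, 0.32 and 0.93. These medians without Bahd1-KO replicate 2 were 0.09, 0.15, 0.43 and 1.21, and -0.22, -0.01, 0.22 and 0.61 in the other genes. In the group of highest GC content, 18 of 19 ribosomal protein genes (94.7%) were higher with an adjusted p under 0.1, compared with 62.1% of 3548 other genes. In the group of lowest GC content 4 of 19 (21.1%) were, Rps23, Rpl37a, Rpl37 and Rps3, compared with 0.27% of 4812 other genes. The GC content is that of the annotated principal transcript, with 937, 558, 835 and 1908 bases for these 4 genes. Whether those forms are the ones expressed was not tested. The other genes of this GC range were also longer, with a median of 3387.5 bases against 937.

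**Figure D4:**
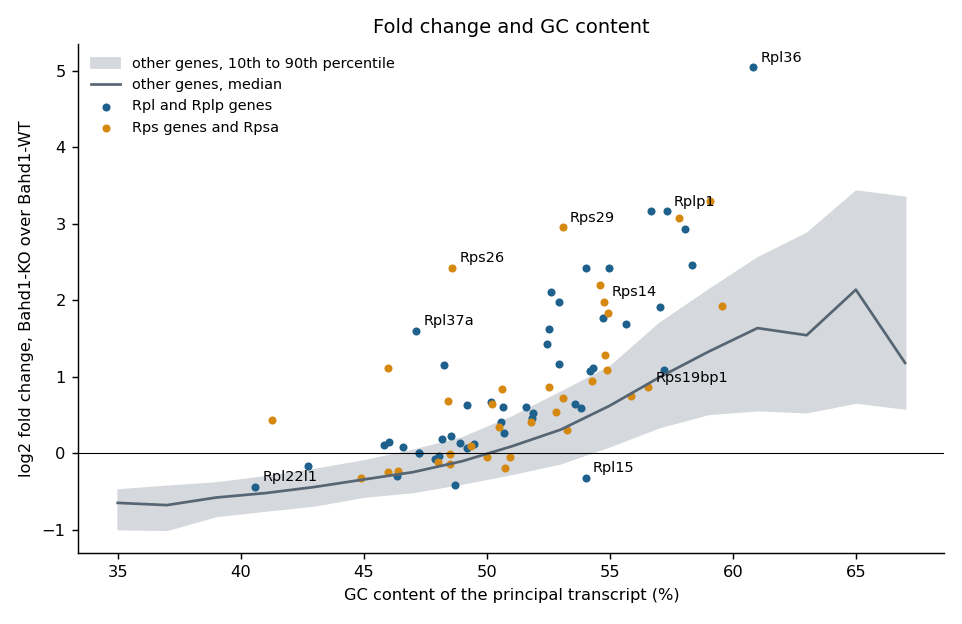
Log2 fold change, Bahd1-KO over Bahd1-WT, against the GC content of the principal transcript for the 81 ribosomal protein genes (points), with the median (line) and the 10th to 90th percentile (band) of other genes in bins of GC content. Both run upward, and many ribosomal protein genes, such as Rps26, Rps29 and Rpl37a, lie above the band while Rpl15 lies below it.

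A fit with a GC and length offset for each library was set beside the main fit. With it the median log2 fold change of the 87 genes was 0.31 and that of all genes -0.03, 61 genes were positive and 26 negative, and 22 genes (background 4.87%) had an adjusted p under 0.1, all of them higher in Bahd1-KO. The rho with GC content was then 0.33 in the standard genes and 0.03 in the other genes. Rps14 was the only ribosomal protein gene past both thresholds, with a log2 fold change of 1.12 (edgeR adjusted p 0.0222), where 0.0167% of all genes were.
Rps26, a protein at the mRNA exit channel with a GC content of 48.6%, had a log2 fold change of 2.36 with the offset and 2.43 without it, and Rpl37a had 1.59 and 1.60. Rps26 had 1.48 without Bahd1-KO replicate 2. Rps19, the gene most often mutated in Diamond-Blackfan anaemia, with a GC content of 59.6%, had 0.36 with the offset and 1.93 without it. Leaving out Bahd1-KO replicate 2 in place of the offset gave 1.29 for Rps19. Without Bahd1-KO replicate 2, a combination added after the data were seen, the offset left a median of 0.21 and an adjusted p under 0.1 for 2 genes, Rps14 and Rpl11, against 0.0751% of all genes.

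**Figure D5:**
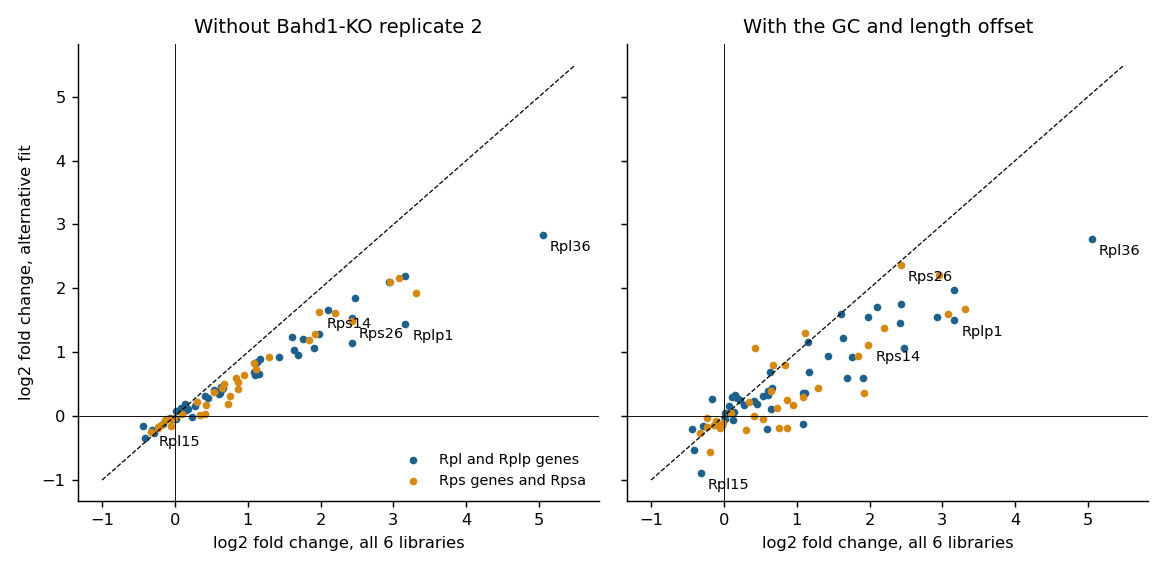
Log2 fold changes of the 81 genes in the fit of all 6 libraries (x axis) against the fit without Bahd1-KO replicate 2 (left) and the fit with the GC and length offset (right), with the dashed line at equal values. Most genes with large values lie under the line in both panels, and Rps26 stays on it only with the offset.

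Several ribosomal proteins have paralogs with narrower expression. Rpl3l, which replaces Rpl3 in heart and skeletal muscle, had 12, 4 and 19 counts in Bahd1-WT and 21, 41 and 17 in Bahd1-KO. In CPM its groups did not overlap, with a log2 fold change of 1.38 (SE 0.48, edgeR adjusted p 0.0988), beside 0.53 (SE 0.18, adjusted p 0.0905) for Rpl3, which had 127 to 173 CPM in Bahd1-WT and 201 to 257 in Bahd1-KO. With the offset these were 0.52 and 0.31, with edgeR adjusted p of 0.594 and 0.135. Rpl22l1, the paralog that Rpl22 holds down, had 20.9, 25.3 and 24.6 CPM in Bahd1-WT and 29.0, 9.81 and 13.7 CPM in Bahd1-KO, with values on either side of the Bahd1-WT range and a log2 fold change of -0.43 (SE 0.36), which was -0.98 without Bahd1-KO replicate 1 and -0.16 without replicate 2. Rpl22 itself had 75.9 to 78.8 CPM in Bahd1-WT and 69.4 to 89.4 in Bahd1-KO (log2 fold change 0.01, SE 0.15).

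Rps27l, a paralog of Rps27 known as a p53 target, had 7.66 to 8.70 CPM in Bahd1-WT and 5.13 to 9.03 in Bahd1-KO (log2 fold change -0.33, SE 0.25), and Rps27 had -0.19 (SE 0.21). Rpl7l1 had 33.9 to 38.5 and 35.6 to 40.4 CPM (0.07, SE 0.16) and Rpl7 had 136 to 180 and 141 to 191 CPM (0.11, SE 0.18). Rpl36al, a copy of Rpl36a, had a mean under 1 CPM, a log2 fold change of 0.84 (SE 0.40, edgeR adjusted p 0.181) and overlapping groups, and the testis paralog Rpl39l had 1 to 8 counts in Bahd1-WT and 1 to 3 in Bahd1-KO. The retrogenes Rpl37rt and Rps3a3 also had few counts, with 4, 4 and 6 in Bahd1-WT and 4, 22 and 5 in Bahd1-KO for Rpl37rt, and 6, 1 and 4 in Bahd1-WT and 1, 6 and 2 in Bahd1-KO for Rps3a3. Rps19bp1 had a log2 fold change of 0.87 (SE 0.29, adjusted p 0.0909), which was -0.19 with the GC and length offset. Over the 9 paralogs and retrogenes tested, 5 log2 fold changes were positive and 4 negative, with a median of 0.07, and 2 (22.2%), Rps4l and Rpl3l, were higher with an adjusted p under 0.1, against 14.7% of all genes.

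The log2 fold changes of the 4 genes on chromosome X ran from -0.41 for Rpl39 to 0.42 for Rpl10, with 0 of 4 under an adjusted p of 0.1 in edgeR and 1 at an unadjusted p under 0.05, where 19.5% and 31.8% of all genes were. Rpl10 had 44.6, 46.2 and 50.2 CPM in Bahd1-WT and 66.2, 70.2 and 51.9 CPM in Bahd1-KO, without overlap, with a log2 fold change of 0.42 (SE 0.17, edgeR adjusted p 0.133). Rpl36a had 30.9 to 41.9 and 30.6 to 47.5 CPM (0.08, SE 0.21). Rps4x had 76.6 to 90.6 and 62.3 to 99.3 CPM (-0.14, SE 0.20), and its autosomal retrogene Rps4l is given above. The GC content of these 4 transcripts was 46.58 to 50.56%, under the median of 51.7% over the standard genes.

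Fau and Rack1 also encode ribosomal proteins, Fau as a fusion with a ubiquitin-like protein, and fell outside the naming rule. Fau had 425 to 1148 counts in Bahd1-WT and 929 to 7638 in Bahd1-KO, with a log2 fold change of 2.11 (SE 0.50, edgeR adjusted p 0.0634) that was 1.23 without Bahd1-KO replicate 2 and 0.59 with the GC and length offset. Rack1, a scaffold on the small subunit, had 2251 to 5069 and 3642 to 17142 counts, with 1.26 (SE 0.31, adjusted p 0.0634), 0.83 without that library and 1.17 with the offset.

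Other genes of the pathway were taken as lists. Of 14 genes for translation factors and related proteins whose mRNAs also carry a 5'TOP motif, 2 (14.3%) were higher with an adjusted p under 0.1, close to the 14.7% of all genes tested, and the median log2 fold change was 0.03. These 2 were Eef2, the elongation factor that moves the ribosome along (1.92, SE 0.46), and Eef1d, an exchange factor (1.39, SE 0.34), with 0.85 and 1.08 under the GC and length offset, and 1.25 and 0.91 without Bahd1-KO replicate 2. Eif3e had -0.52 (SE 0.24) and Npm1 -0.45 (SE 0.24), neither past the threshold, and with the offset they had -0.05 and -0.06. With the offset 2 of the 14 were under 0.1, where only 4.87% of all genes were, and the median was 0.19. Of 5 host genes of small nucleolar RNAs with 5'TOP starts 1, Snhg8, was higher and under 0.1, against 14.7% of all genes. Snhg8 had a log2 fold change of 1.77 (SE 0.57, edgeR adjusted p 0.0837), and 0.67 without Bahd1-KO replicate 2. A single gene in so short a list cannot be told from that share. The median of the 5 genes was -0.21, with -0.54 (SE 0.26) for Snhg1. With the offset 0 of these 5 were under 0.1, where 4.87% of all genes were. The median was then 0.25 and Snhg1 had -0.0027, so that the median changed its sign.

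Of 24 ribosome biogenesis genes 23 were tested, 6 (26.1%) were higher and 0 lower with an adjusted p under 0.1, against 14.7% and 4.77% of all genes, and the median was 0.14. Bop1, which processes large-subunit rRNA, had 1.73 (SE 0.40) and Rrp9, a protein of the U3 particle, 1.49 (SE 0.46), while Nop58 had -0.58 (SE 0.24) and nucleolin, Ncl, -0.53 (SE 0.23). Without Bahd1-KO replicate 2 they had 1.15, 0.83, -0.39 and -0.34. With the GC and length offset these 4 values were 0.52, 0.04, -0.20 and -0.06. In that fit 3 of the 23 genes were under 0.1, where 4.87% of all genes were, and the median was 0.06.
Of 14 genes that control translation, such as the mTOR pathway, 3 (21.4%) were higher and 1 was lower, against the same 14.7% and 4.77%, with a median of 0.43. Rps6kb2, a kinase of ribosomal protein S6, had 1.44 (SE 0.39) and Rptor, an mTOR partner, 1.04 (SE 0.30), while the related kinase Rps6kb1 had -0.61 (SE 0.19, edgeR adjusted p 0.0807), which was 0.01 with the offset, and Eif4e had -0.39 (SE 0.22), which turned to 0.16 with the offset. The adjusted p-values of Rps6kb2 and Rptor were 0.0647 and 0.0686, and their log2 fold changes with the offset 0.64 and 0.14. With the offset 0 of the 14 genes were under 0.1, where 4.87% of all genes were, and the median of the 14 was 0.08.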

How the data were processed

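The data were RNA-seq counts per gene from brain hemispheres of 3 Bahd1-WT and 3 Bahd1-KO mice, grouped by the genotype in the labels, one library per mouse. The authors trimmed reads with cutadapt 1.11, aligned them to GRCm38 (STAR 2.5.0a per the labels; the supplementary methods also name Tophat2) and deposited whole-number counts from featureCounts 1.4.6-p3, without normalization or filter. The table holds 0 columns of other samples.

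Testing, in R 4.3.3, used edgeR 4.0.16 (TMM, quasi-likelihood, genotype only, Benjamini-Hochberg) on the 23975 genes whose counts summed to 10 or more. DESeq2 1.42.0 was an alternative. CPM are TMM-scaled, and differences of single libraries use log2(CPM + 0.5). Transcript length, GC content and positions came from GENCODE M21 (GRCm38), from the principal transcript. For the offset, natural splines on GC content (5 degrees of freedom) and log length (3) were fitted per library to 13283 genes. The scripts were tested on simulated data with the same spread set for every gene, no outlying library and no trend with GC content. That test does not measure error rates in the present libraries. Other alternatives were 3 other scalings, 2 other filters, leaving out each sample and the replicate block; robust shrinkage and the offset without Bahd1-KO replicate 2 were added after the data were seen.

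Values are named for the 6 largest positive and negative log2 fold changes at a mean of 1 CPM or more, the 5 highest and lowest levels per kilobase, the stalk, paralog-like and X-linked genes with their parents, Fau, Rack1 and up to 4 genes of each pathway list; other genes are marked as picked later or illustrate a group, and 2 genes of the rule are not reported here. The genes and lists were chosen with earlier results of these data known. Same-numbered libraries come from different mice, and p-values measure the spread between these 3 mice a group. A floor of 3 counts is 0.0321 to 0.0709 CPM and covers counting error only.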

Additional observations from a re-analysis of the deposited data

How the results depend on the processing

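The count of ribosomal protein genes past both thresholds, 0 in the reported fit, was 29 with total counts, 31 with a filter of 1 count, 31 with DESeq2 without and 31 with its prior (8.37, 8.45, 11.5 and 10.5% of all genes in these fits, against 0.00834% in the reported one), 1 with the GC and length offset (0.0167%), 1 with the offset without Bahd1-KO replicate 2 (0.0209%), and 0 to 33 with a sample left out (0 to 16.7%). Those with an adjusted p under 0.1, 38, were 22 with the offset (4.87% of all genes), 2 with the offset without Bahd1-KO replicate 2 (0.0751%), and 0 to 52 with a sample left out. Leaving out a sample also leaves fewer samples, and of all genes 0 to 9732 then had an adjusted p under 0.1. With the replicate block the counts were 0 past both thresholds and 0 under 0.1, and with the offset and the replicate block 0 and 0, where at most 0.0417% of all genes were called; same-numbered libraries deviated in opposite directions (correlations -0.644, -0.656 and -0.144) and 0 of 6 samples correlated best with their own number, so the numbers do not pair the samples. The median log2 fold change, 0.642, was 0.305 with the offset, 0.305 with the offset and the block, 0.209 with the offset without Bahd1-KO replicate 2, and 0.414 to 0.781 with a sample left out. With upper-quartile factors it was 0.495, where the median of all genes was -0.202 in place of -0.061. The number of positive genes was 60 to 74 over the alternatives. The log2 ratio of summed CPM was computed with the 3 other scalings and with each sample left out, and was 0.272 to 0.643.

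Of the 55 genes with named fold changes, 816 alternative values kept direction and side of the adjusted p threshold of 0.05, 141 passed it and 27 changed sign. With upper-quartile factors Rpl7 had -0.029, Rpl7l1 -0.065, Rpl22 -0.122, Rpl36a -0.051, Rpl17 -0.132 and Rpl9 -0.00049. With a sample left out Rpl22 ran from -0.064 to 0.086, Rpl36a from -0.091 to 0.221 and Rpl17 from -0.054 to 0.153. With the offset, the offset and the replicate block, and the offset without Bahd1-KO replicate 2, Rps19bp1 had -0.187, -0.190 and -0.121 and Eif4e 0.165, 0.163 and 0.138. With the first 2 of these Rpl22 had -0.045 and -0.053 and Rps6kb1 0.013 and 0.012, and with the last Rpl22l1 had 0.014, Rpl17 -0.012 and Rrp9 -0.032. The cause of these shifts was not tested. Depth limits Rpl24, Rpl3l and Rpl39l, with at most 41 counts in a library.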

Other observations

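The 6 ribosomal protein genes below 10 counts in sum were not tested. Rpl6l, Rpl10l and Rps12l1 had 0 counts in all 6 libraries, Rps3a2 had 1 count in Bahd1-WT replicate 1 and 1 in Bahd1-KO replicate 1, and Rpl32l had 1 count in Bahd1-WT replicates 2 and 3 and 3 in Bahd1-KO replicate 2. Rps27rt, a retrogene of Rps27, had 1 count in Bahd1-WT replicate 3, 6 in Bahd1-KO replicate 2 and 1 in Bahd1-KO replicate 3. These values are at or near the floor of 3 counts.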
